A study of Mus musculus with 4 samples.

Results

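The dystrophin glycoprotein complex is described here through 8 genes, Dmd, Utrn, Dag1, Sgca, Sgcb, Sgcd, Sspn and Dtna, in whole skeletal muscle of wild type mice. The members were chosen by name, as all probe sets that the platform annotation gives to exactly 1 of these genes. All 8 genes were measured, by 22 probe sets, out of 12393 genes on the array. For each gene the probe set with the highest mean stood for the gene, and the other probe sets were read as a check. The samples were 4 arrays of normal muscle, 2 titled skm (skm4 and skm5) and 2 titled nm (nm7 and nm8). All came from mice of mixed 129S4/SvJae and C57BL/6 background with no engineered allele or treatment named. The sources used here do not give the meaning of the title prefix, the muscle sampled, or the age and sex of the animals, and do not say that each array came from a separate animal. The series also covers sarcomas, which were not analysed here.

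The complex links the cytoskeleton of a muscle fibre to the matrix around it. Dystrophin binds actin inside the cell and the beta subunit of dystroglycan at the membrane, the alpha subunit of dystroglycan binds laminin outside, and the sarcoglycans with sarcospan form a subcomplex that holds dystroglycan in the membrane. Loss of dystrophin in the mdx mouse and in Duchenne muscular dystrophy lowers the whole complex at the membrane, and loss of single sarcoglycans underlies limb-girdle muscular dystrophies in humans. Utrophin is a close relative of dystrophin that is concentrated at the neuromuscular junction of adult fibres and is also made in endothelial and other cells.

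Values are log2 expression after robust multi-array averaging (RMA), so a difference of 1 is a change of 2-fold. The level of a probe set depends on its own probes, so genes are compared by their differences between samples and not by their levels. Defining genes of skeletal muscle were near the top of the scale in every sample. The 10 fibre markers, among them Acta1, the actin of the skeletal sarcomere, and Ckm, the muscle creatine kinase, read 13.73 to 14.76. TrpnX, an array control of bacterial origin, read 3.46 to 3.93 in skm samples and 3.40 to 4.05 in nm samples and marks the background. Some controls split by prefix. The 3 probe sets of 18S ribosomal RNA read 10.87 to 12.19 in skm samples against 12.98 to 13.54 in nm samples. For DapX, another bacterial control, the 3′ minus 5′ probe set difference was 3.07 and 2.93 in skm4 and skm5 against 2.35 and 2.39 in nm7 and nm8, and for beta actin it was -0.45 and -0.44 in skm4 and skm5 against 0.62 and 0.56 in nm7 and nm8. These controls separate skm from nm, so any prefix difference below stands beside them, and their part in it was not tested.

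Promoters of 3 members are shown because Dmd is the centre of the complex and because Utrn and Sgca were the members with the smallest unadjusted p between prefixes, in opposite directions. From the RefSeq table of GRCm38.p6, 10 entries for 7 of the 8 genes were used. Each ran from 250 bases before a transcript start to 50 bases after it. No window of Dtna was used, which does not show that the table lacks one. Capitals mark matches, on either strand, to the E-box (CANNTG, bound by MyoD and its relatives), the N-box (CCGGAA, known from synaptic genes of muscle), the CArG box (bound by serum response factor) and the MEF2 site. The lines give Dmd at chrX:82948620-82948919 on the plus strand, Utrn at chr10:12861686-12861985 on the minus strand and Sgca at chr11:94976278-94976577 on the minus strand, all written 5′ to 3′.
Dmd: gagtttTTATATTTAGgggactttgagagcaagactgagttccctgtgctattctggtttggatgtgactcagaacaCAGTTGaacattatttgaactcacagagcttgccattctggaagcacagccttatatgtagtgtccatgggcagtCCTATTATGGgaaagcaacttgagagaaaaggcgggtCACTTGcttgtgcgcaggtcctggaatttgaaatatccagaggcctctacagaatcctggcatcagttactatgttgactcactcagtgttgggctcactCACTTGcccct
Utrn: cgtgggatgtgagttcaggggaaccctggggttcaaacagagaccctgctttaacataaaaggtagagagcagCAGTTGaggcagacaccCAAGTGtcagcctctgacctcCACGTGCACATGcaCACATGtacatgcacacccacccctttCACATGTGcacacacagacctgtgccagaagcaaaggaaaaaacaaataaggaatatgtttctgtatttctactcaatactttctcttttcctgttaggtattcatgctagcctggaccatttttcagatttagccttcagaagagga
Sgca: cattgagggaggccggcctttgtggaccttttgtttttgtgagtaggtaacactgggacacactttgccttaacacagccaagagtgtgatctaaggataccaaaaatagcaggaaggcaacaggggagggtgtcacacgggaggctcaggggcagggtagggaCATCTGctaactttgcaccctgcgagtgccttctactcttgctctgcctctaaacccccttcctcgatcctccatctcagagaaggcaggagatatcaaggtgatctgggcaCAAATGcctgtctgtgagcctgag

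The Dmd window held 3 E-boxes, 1 CArG box and 1 MEF2 site. A second Dmd window in the table, at chrX:85048045-85048344, held no match to any of the 4 motifs and is not printed. The Utrn window held 7 E-boxes, of which a pair overlaps in the run CACATGTG, and the Sgca window held 2. None of the 3 windows held an N-box. Transcript starts outside the windows used were not searched, so this does not show that Utrn lacks an N-box elsewhere. Of 32851 promoter windows in the table, 72.3% held an E-box, 14.9% an N-box, 1.63% a CArG box and 3.19% a MEF2 site, so E-boxes in such a window are common and the other motifs are not. A match is a string of letters and does not show binding.

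Members of the complex differed little between the samples. Leaving out Sgcd, the other 7 genes ranged over 0.16 to 0.74 on the log2 scale from their lowest to their highest sample, with SDs of 0.07 to 0.34 (n = 4). The median SD over the 8 genes was 0.20, against 0.19 over all 12393 genes, and 4 of the 8 had an SD above that of the median gene. Only Sgcd ranged over more than 1, as did 5.98% of all genes. Between the title prefixes, 0 of the 8 members passed limma's test at an adjusted p of 0.05, where 0.0323% of all genes did, and 2 members had an unadjusted p under 0.05, where 23.5% of all genes did. The samples of the prefixes did not overlap for 3 of the 8 members, against 54.4% of all genes. Of these 3, Sgca and Dag1 were higher in skm samples, as 25.8% of all genes were, and Utrn was lower, as 28.6% of all genes were. In none of these counts did the members exceed the share of all genes by as much as 1 gene. The median skm minus nm difference was -0.04 over the members and -0.0034 over all genes.

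**Figure D1:**
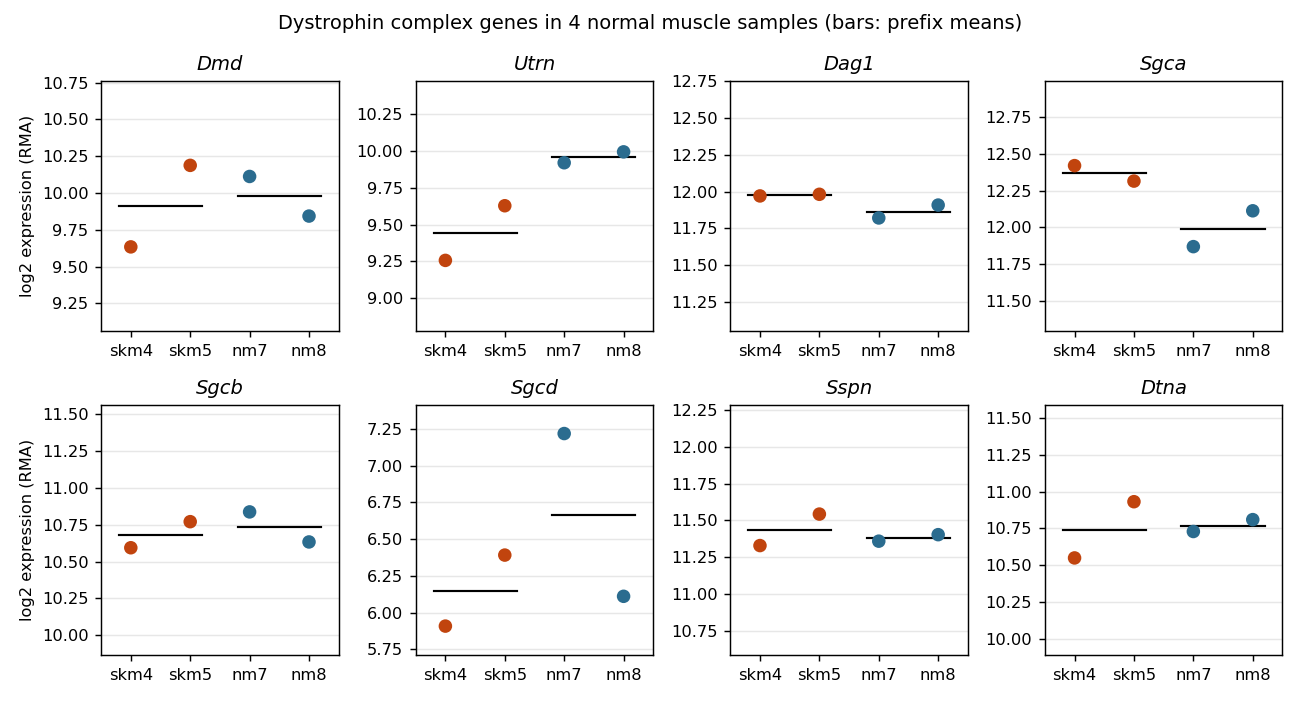
Log2 expression of the 8 genes by sample, with skm samples in orange and nm samples in blue and black bars for the mean of each prefix (n = 2). Every panel spans the same number of log2 units, so the vertical spread can be compared between panels, and Sgcd in nm7 at 7.22 stands farthest from the rest of its gene.

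In the probe sets that stand for the genes, skm4 was the lowest of the 4 samples for 6 of the 8 members. These were Dmd, Utrn, Sgcb, Sgcd, Sspn and Dtna, where 26.6% of all genes had their lowest value in that sample. The other 2, Dag1 and Sgca, were lowest in nm7. Sample skm5 was the highest for 4 members, Dmd, Dag1, Sspn and Dtna, where 20.6% of all genes were highest in it. The 2 skm samples thus stood at opposite ends for Dmd, Sspn and Dtna, so in these 3 probe sets the spread lay within a prefix and not between prefixes. Other probe sets did not all have skm4 lowest. It was lowest in 1417307_at of Dmd and in 1456069_at, 1429768_at and 1426066_a_at of Dtna. For Utrn, Sgcb and Sspn it was lowest in none of the other probe sets. It was the highest in 1427569_a_at of Utrn and 1417645_at of Sspn. A low level of the complex in skm4 is therefore not read from the count.

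Dmd encodes dystrophin, the large rod-shaped protein that anchors the complex to actin. It read 9.63 in skm4 and 10.19 in skm5, against 10.11 in nm7 and 9.84 in nm8. The prefixes overlapped, with both the lowest and the highest value among skm samples. The difference was -0.07 ± 0.22 (SE, n = 2 per prefix; 95% interval -0.61 to 0.48; limma, adjusted p = 0.888), and it was 0.21 without skm4 and -0.34 without skm5. A second Dmd probe set, 1417307_at, read 9.77 and 9.94 in skm4 and skm5 against 9.94 and 9.97 in nm7 and nm8, again with skm4 the lowest. Another, 1430320_at, read 3.47 to 3.58 in all samples, within the span of the TrpnX controls.

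Utrn, the gene of utrophin, had the largest difference among members whose samples did not overlap. It read 9.26 in skm4 and 9.63 in skm5, against 9.92 in nm7 and 9.99 in nm8. Both skm samples were below both nm samples. Utrn was 1.43-fold lower in skm samples, at -0.51 ± 0.16 (SE; 95% interval -0.92 to -0.11), with an adjusted p = 0.144 in limma's test over all genes, and so missed the threshold. With each sample left out in turn the difference ran between -0.70 without skm5 and -0.33 without skm4, and leaving out skm4 moved it by over 1.5 times. The other probe sets of Utrn were dimmer and gave smaller differences. Probe set 1426892_at read 5.15 and 4.98 in skm4 and skm5 against 5.30 and 5.26 in nm7 and nm8, a difference of -0.21, and 1427569_a_at read 6.12 and 6.01 against 6.06 and 6.06, a difference of 0.0045. When the 3 probe sets were averaged, the difference of Utrn was -0.24 (limma, adjusted p = 0.263).

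The order of the samples for the probe set that stands for Utrn was that of the summed lymphocyte markers, which were lower in skm. The other probe sets of Utrn had other orders. Of the 9 marker lists, only the lymphocyte and adipocyte lists had this order in their sums. All 9 measured lymphocyte markers of 10 listed were lower in both skm samples, and their summed linear level was 710 in skm4 and 1734 in skm5 against 3784 in nm7 and 4616 in nm8. The adipocyte list had the same order, with 5 of 8 measured markers lower without overlap and sums of 35050 and 42296 in skm4 and skm5 against 48991 and 51016 in nm7 and nm8. Endothelial markers, a cell type that makes utrophin, went both ways, with 5 higher and 4 lower without overlap of 11 measured. They summed to 7235 and 7601 in skm4 and skm5 against 6400 and 6258 in nm7 and nm8. Over all genes, 25.8% were higher and 28.6% lower in skm samples without overlap. The dimmest markers in these 3 lists were Ms4a1 at 4.85, Lep at 6.80 and Tie1 at 7.64, against 3.40 to 4.05 for TrpnX over all samples. The part of these cells in the Utrn values was not tested, and in whole tissue fewer cells of a type and less RNA per cell cannot be told apart.

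Dag1 encodes both dystroglycan subunits, cut from a single precursor, and was the steadiest member. It read 11.97 in skm4 and 11.98 in skm5, against 11.82 in nm7 and 11.91 in nm8. The skm samples were higher by a margin smaller than the gap between the nm samples, and the difference was 0.11 ± 0.12 (SE; 95% interval -0.18 to 0.41; limma, adjusted p = 0.622). All 4 probe sets of Dag1 had a positive difference, between 0.04 and 0.14, and the samples overlapped between prefixes in 2 of them.

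The sarcoglycans, single-pass membrane proteins that assemble as a unit in muscle, did not share a direction between prefixes, and none of the 3 passed the test. Sgca, alpha-sarcoglycan, which is made almost only in striated muscle, read 12.42 in skm4 and 12.31 in skm5, against 11.87 in nm7 and 12.11 in nm8. Both skm samples were above both nm samples. The gene was 1.30-fold higher in skm samples, at 0.38 ± 0.14 (SE; 95% interval 0.03 to 0.73; limma, adjusted p = 0.189), and missed the threshold. With each sample left out the difference was 0.25 without nm7 and 0.50 without nm8 at its ends. It has 1 probe set, so no check on another was possible. The 10 fibre markers summed to linear levels of 235920 and 234637 in skm4 and skm5 against 233672 and 225793 in nm7 and nm8, but most of them read close to the highest value of the arrays, 14.74 to 14.76, so these sums do not measure how even the fibre content was. The dimmest of them, Pygm, the muscle glycogen phosphorylase, was looked at after its values were seen. It read 14.06 and 14.03 in skm4 and skm5 against 13.77 and 13.73 in nm7 and nm8, with no overlap and in the direction of Sgca (limma, adjusted p = 0.205). The list as a whole did not share this, with 7 positive and 3 negative differences. Of the 10 markers, 2 were higher in skm samples without overlap, against 25.8% of all genes. The part of fibre content in the Sgca values was not tested.

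Sgcb, beta-sarcoglycan, read 10.59 in skm4 and 10.77 in skm5, against 10.84 in nm7 and 10.63 in nm8. The prefixes overlapped, and the difference was -0.05 ± 0.14 (SE; limma, adjusted p = 0.86). Its second probe set gave the opposite sign. That probe set, 1419667_at, read 9.94 in skm4 and 9.97 in skm5, against 9.41 in nm7 and 9.90 in nm8, a difference of 0.30 (adjusted p = 0.396 over all probe sets). In nm7 the 2 probe sets stood at opposite ends, as the highest of the 4 samples in the first and the lowest in the second, so the direction of Sgcb between these samples is not settled by the array.

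Sgcd, delta-sarcoglycan, which pairs with beta-sarcoglycan at the core of the unit and is also made in smooth muscle, was the member with the largest spread (SD 0.58, n = 4). It read 5.91 in skm4 and 6.39 in skm5, against 7.22 in nm7 and 6.11 in nm8. Only nm7 stood apart, while nm8 lay between the skm samples. The difference of -0.51 ± 0.38 (SE; limma, adjusted p = 0.476) rested on that sample. It was 0.04 without nm7 and -1.07 without nm8. The spread was 0.24 without nm7. Sgcd has 1 probe set, so its values had no check on another. Sgcd was the only member with a mean below that of the median gene, 7.86, so 7 of the 8 members passed a filter at that level. Smooth muscle markers summed to 29205 and 26995 in skm4 and skm5 against 30342 and 29519 in nm7 and nm8. Of 10 measured, 2 were higher and 2 lower without overlap, against 25.8% and 28.6% of all genes. The dimmest was Cnn1 at 6.59. The list holds Des, desmin, which skeletal fibres also make at a high level. Without Des the other 9 summed to 15830 and 16561 in skm4 and skm5 against 16907 and 15105 in nm7 and nm8. The sum was highest in nm7, as Sgcd was, but skm5 was close to it. It was lowest in nm8, where Sgcd was lowest in skm4. Their part in the Sgcd values was not tested.

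Among 6197 other genes with a mean at or above that of the median gene, the 3 whose profile over the 4 samples was nearest to Sgcd were Lyve1, Sfpq and Lasp1. The likeness was the Euclidean distance between log2 profiles after each gene's mean was taken off, which was 0.28, 0.33 and 0.35. Lyve1, a hyaluronan receptor of lymphatic vessels and some macrophages, read 7.69 in skm4, 8.25 in skm5, 8.71 in nm7 and 7.90 in nm8. Sfpq, a nuclear splicing factor, read 8.71 in skm4, 8.94 in skm5, 9.85 in nm7 and 9.09 in nm8. Lasp1, a protein that binds actin, read 9.56 in skm4, 10.34 in skm5, 10.82 in nm7 and 10.10 in nm8. Like Sgcd, all 3 were highest in nm7 and lowest in skm4. They were chosen for this likeness, so it is no separate result, and over 4 samples it is a description.

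Sspn encodes sarcospan, a membrane protein of tetraspanin type that binds the sarcoglycans. It read 11.33 in skm4 and 11.54 in skm5, against 11.36 in nm7 and 11.40 in nm8. The skm samples held both ends of the range, and the difference was 0.06 ± 0.13 (SE; limma, adjusted p = 0.844). The second probe set of the gene behaved differently. Probe set 1417645_at read 9.50 in skm4 and 9.39 in skm5, against 9.06 in nm7 and 8.80 in nm8, with no overlap. It was 1.43-fold higher in skm samples, at 0.51 ± 0.15 (SE), the largest positive difference of any of the 22 probe sets, with an adjusted p = 0.125 over the 20380 probe sets. The 2 probe sets of Sspn did not show the same difference between prefixes, and the sources used here do not say which transcripts each one reads.

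Dtna encodes alpha-dystrobrevin, a cytoplasmic relative of dystrophin that binds it and recruits syntrophins. It read 10.55 in skm4 and 10.93 in skm5, against 10.73 in nm7 and 10.81 in nm8. Both nm samples lay between the skm samples, and the difference was -0.03 ± 0.16 (SE; limma, adjusted p = 0.938). Of its 6 probe sets, 5 had a negative difference and 1 a positive one, from -0.20 to 0.09, and 2 had no overlap between prefixes. Probe set 1426066_a_at had the widest range of the 6, 0.93, with 6.48 in skm4 and 7.40 in skm5 against 6.79 in nm7 and 7.36 in nm8. There the low samples were skm4 and nm7, a split that crosses the prefixes.

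**Figure D2:**
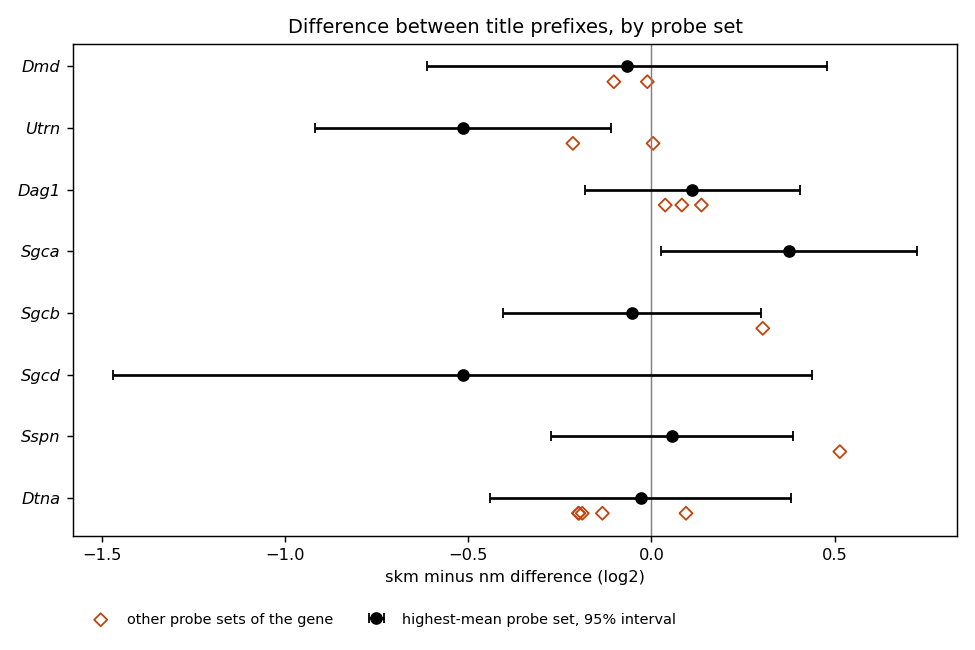
Difference between skm and nm samples on the log2 scale for each gene, as black points with 95% intervals for the probe set that stands for the gene and open orange diamonds for its other probe sets. The intervals of Utrn (-0.92 to -0.11) and Sgca (0.03 to 0.73) lie on 1 side of 0 before adjustment over all genes, and the second probe sets of Sgcb and Sspn lie to the right of the first.

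Over all 22 probe sets of the members, 10 differences were positive and 12 negative. The samples did not overlap for 10 of the 22, against 53.3% of all 20380 probe sets. Of the 10, 5 had skm higher, as 25.6% of all probe sets did, and 5 had skm lower, as 27.7% did. In limma's fit of every probe set on its own, 0 of the 22 passed at an adjusted p of 0.05, where 1.6% of all probe sets did, and 3 had an unadjusted p under 0.05, where 22.4% did. The 3 were the probe sets that stand for Utrn and Sgca and the second probe set of Sspn. For Dag1, Sgcb, Sspn and Dtna the probe set with the widest range was a dimmer one than that which stands for the gene.

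**Figure D3:**
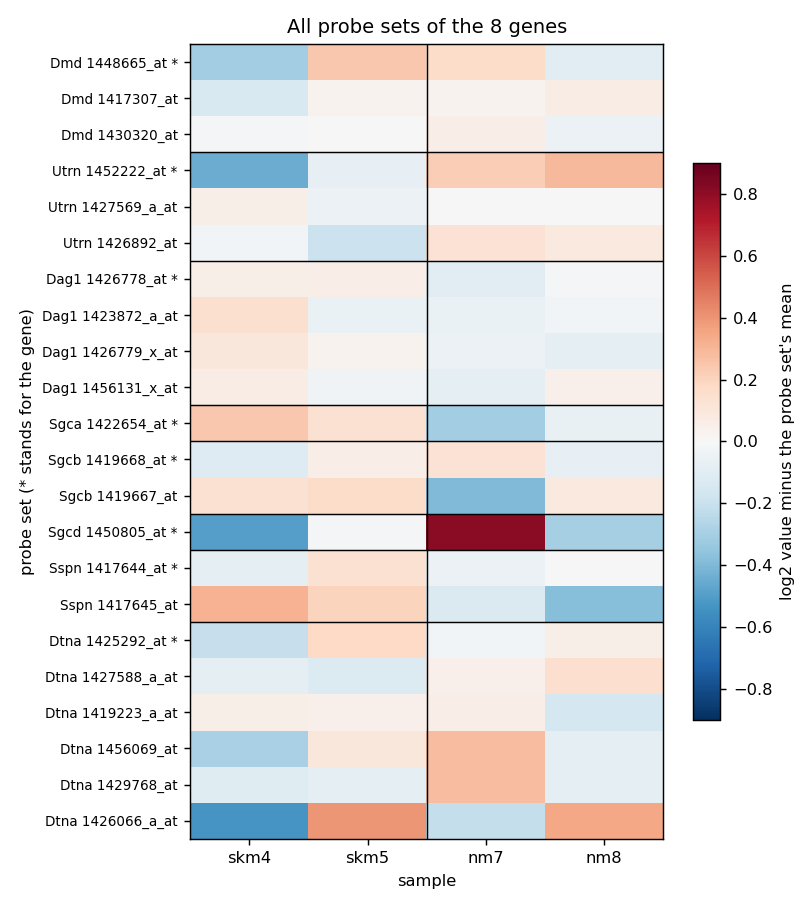
Log2 value of each of the 22 probe sets in the 4 samples after its own mean was taken off, with red above the mean and blue below it. Rows are grouped by gene and an asterisk marks the probe set that stands for the gene. Sgcd in nm7 is the darkest cell, and probe sets of 1 gene can differ in sign in a sample, as those of Sgcb do in nm7.

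Genes of other subunits and of proteins that bind the complex had a median SD of 0.17, against 0.20 for the members. Of 22 such genes listed, 16 were measured, 0 passed the test, and 4 had no overlap between prefixes, 2 of them higher and 2 lower, against 54.4% of all genes, 25.8% higher and 28.6% lower. Mast2, a kinase that binds syntrophins, read 10.38 and 10.44 in skm4 and skm5 against 9.997 and 9.96 in nm7 and nm8, a difference of 0.43 ± 0.12 (SE; limma, adjusted p = 0.112). Sync, syncoilin, an intermediate filament protein that binds dystrobrevin, differed by 0.33 ± 0.13 (adjusted p = 0.196). Cav3, caveolin of muscle, which binds beta-dystroglycan, differed by -0.26 ± 0.12 (adjusted p = 0.245). Sntg2, a gamma-syntrophin, differed by -0.24 ± 0.19 and was dim at 4.34 to 4.92.

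A few partners are given for their role and were chosen after their values were seen. Sgce, epsilon-sarcoglycan, the relative of Sgca that is made in many tissues, read 8.61 in skm4 and 9.0 in skm5, against 8.99 in nm7 and 8.95 in nm8. Dtnb, beta-dystrobrevin, read 6.47 in skm4 and 6.82 in skm5, against 6.85 in nm7 and 6.83 in nm8. For both genes skm4 alone was low. Other partners looked at did not share this. Sntb1 was lowest in skm5, Sntb2 was lowest in nm7, and Plec was highest in skm4, at 12.30. Nos1, the neuronal nitric oxide synthase that the complex holds at the membrane, read 7.91 in skm4 and 7.43 in skm5, against 8.12 in nm7 and 7.33 in nm8, which split each prefix. Of the 12 slow fibre markers, 9 split the samples in the same way, among them Myh7, the slow myosin heavy chain. The other 3, Casq2, Csrp3 and Ankrd2, were lower in both skm samples without overlap, as 28.6% of all genes were. The list had summed linear levels of 62973 and 35910 in skm4 and skm5 against 60438 and 43011 in nm7 and nm8. The part of fibre type in the Nos1 values was not tested.

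Enzymes that build the laminin-binding sugar of alpha-dystroglycan differed by small amounts in both directions. Of 17 listed, 11 were measured, 0 passed the test, and 8 had no overlap between prefixes, 5 higher and 3 lower, against 54.4% of all genes, 25.8% higher and 28.6% lower. B3galnt2, which adds N-acetylgalactosamine to that sugar, read 9.47 and 9.53 in skm4 and skm5 against 10.14 and 10.21 in nm7 and nm8. Its difference was -0.67 ± 0.12 (SE; limma, adjusted p = 0.0635), a 1.59-fold lower level in skm samples that missed the threshold. Its second probe set, 1454842_a_at, differed by -0.68, with 8.34 in skm4 and 9.62 in skm5 against 9.84 in nm7 and 9.48 in nm8, so there the prefixes overlapped. B4gat1, a glucuronyltransferase of the pathway, differed by 0.43 ± 0.12 (adjusted p = 0.124), Dpm2, a subunit of dolichol phosphate mannose synthase, by 0.30 ± 0.12, and Pomk, which phosphorylates the core mannose, by -0.24 ± 0.13.

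Of 12 listed matrix ligands of dystroglycan, 10 were measured, 0 passed the test, and 5 had no overlap, 2 higher and 3 lower, against 54.4% of all genes. Lama2, the laminin chain of muscle basement membrane that is lost in a congenital muscular dystrophy, was named for its role after its values were seen. It read 10.53 in skm4 and 10.50 in skm5, against 10.74 in nm7 and 10.50 in nm8, and its difference was -0.10 ± 0.14 (SE; limma, adjusted p = 0.698). The beta chains that laminins use went opposite ways. Lamb2, the beta chain concentrated at the neuromuscular junction, differed by 0.43 ± 0.12 (adjusted p = 0.118), and Lamb1, the widespread one, by -0.41 ± 0.15 (adjusted p = 0.19). Of the other probe sets of Lamb1, 1 differed by -0.34 and the dimmest, 1451241_at, by 0.33. Bgn, the proteoglycan biglycan, which binds alpha-dystroglycan and sarcoglycans, differed by 0.34 ± 0.19, and Lama4, a laminin chain of vessels, by -0.33 ± 0.12 (adjusted p = 0.183).

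The integrin receptor for laminin and the proteins of the costamere, the rib-like site where the complex meets the Z-disc, held the largest single difference of the lists, that of Tln1. Of 15 listed, 14 were measured, 0 passed the test, and 11 had no overlap, 5 higher and 6 lower, against 54.4% of all genes, 25.8% higher and 28.6% lower. Tln1, talin, which links integrins to actin, read 9.86 and 9.89 in skm4 and skm5 against 8.74 and 8.68 in nm7 and nm8. Its difference was 1.17 ± 0.12 (SE; limma, adjusted p = 0.0506), a 2.24-fold higher level in skm samples that missed the threshold, and in the fit of every probe set on its own that probe set passed at an adjusted p = 0.0416. A second probe set of Tln1, 1436042_at, read 8.32 and 8.55 in skm4 and skm5 against 8.63 and 8.70 in nm7 and nm8, with a difference of -0.23, so the probe sets of Tln1 gave opposite signs. Actn2, an alpha-actinin of the Z-disc, differed by 0.60 ± 0.19 (adjusted p = 0.149), Actg1, the cytoplasmic gamma actin that dystrophin binds at the costamere, by -0.52 ± 0.12 (adjusted p = 0.0855), and Flnc, the filamin of muscle, by -0.24 ± 0.14. Itga7, the integrin chain that pairs with Itgb1 as the muscle laminin receptor, was named for its role after its values were seen. It read 9.40 and 9.53 in skm4 and skm5 against 9.20 and 9.25 in nm7 and nm8, a difference of 0.24 ± 0.12 (adjusted p = 0.309).

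Over all 4 lists 51 genes were measured, with a median SD of 0.16 against 0.20 for the members and 0.19 for all genes. Of the 51, 28 had no overlap between prefixes, 14 in each direction, close to the 54.4% of all genes. The median difference of the lists lay between -0.07 for the integrin and costamere genes and 0.05 for the glycosylation genes.

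**Figure D4:**
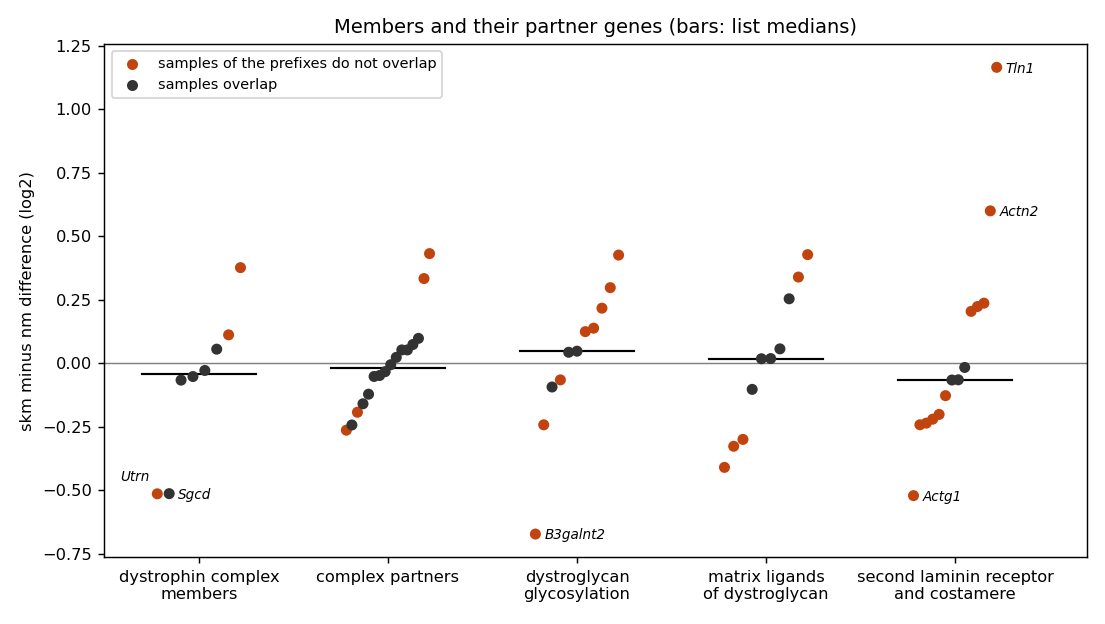
Difference between skm and nm samples on the log2 scale for the 8 members and for the measured genes of 4 partner lists, with orange points where the samples of the prefixes do not overlap and bars for the list medians. The medians lie between -0.07 and 0.05, and Tln1 at 1.17 is the point farthest from 0.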

How the data were processed

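Total RNA of normal muscle was hybridized to 4 Affymetrix arrays of 1 colour. Per the labels' protocols, RNA was extracted by either a fibrous-tissue kit or phenol reagent and columns, without the route of each sample. Per the submitters' processing notes, the authors made log2 expression values per probe set by RMA in Affymetrix Expression Console 1.1, which corrects background, brings arrays to a common distribution and shrinks differences near the background. Array medians were 7.26 to 7.30, and no pair of arrays was identical. The number of columns holding samples that were not used was 0.

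Of 22690 probe sets, 64 controls, 691 with several genes and 1555 with none were left out, and the other 20380 gave 12393 genes. Entrez identifiers served to bring symbols up to date (GRCm38.p6 gene table, 29 probe sets unmatched). The skm minus nm difference was fitted with limma 3.58.1 under R 4.3.3 across all genes, by lmFit and eBayes, 2-sided, with Benjamini-Hochberg adjustment and a limit of 0.05. Residual degrees of freedom were 2, with 3.51 borrowed from other genes, so the number of arrays limits the precision, and intervals are unadjusted. No label names separate animals, so the p-values cover the spread among these samples alone, which may be technical. The prefix is no study group and was treated as a possible batch.

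The members, 4 partner lists and 9 marker lists were chosen with earlier results of these data known. The named genes were the members, genes of a partner list past the test or among its 4 largest absolute differences, and the 3 nearest profiles to the member with the largest SD. Listed genes without a probe set of their own were not analysed here. The fit was tested on simulated data. Alternatives were quantile normalization, median centring, a filter on level, averaged probe sets, leaving out probe sets ending in _x_at or _s_at, probe sets tested singly, an intensity trend in eBayes, each sample left out, and the range as the measure of spread.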

Additional observations from a re-analysis of the deposited data

Results flagged for a closer look

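In 7 of the 59 genes and probe sets looked at, 1 of the 4 samples stood far from the other 3, with a gap to its neighbour, as a ratio to the whole range, above the 95% critical value of Dixon's test. Chance alone gives about 1 such case in 20 for independent values of 1 normal distribution. The share of all genes above this value was not worked out, and several of the 59 belong to the same gene. No excess is therefore read from the count. The 59 were the 22 probe sets of the members, 27 other genes and 10 further probe sets of those genes. The ratio was 0.863 for the second Sgcb probe set, where nm7 was low at 9.41, and 0.874 for Lama2, where nm7 was high at 10.74. In the Dtna probe set 1429768_at it was 0.919, with 8.93 in nm7 against 8.54 to 8.57 in the other samples, and in 1419223_a_at it was 0.917, with 9.13 in nm8 against 9.33 to 9.35. The ratio was 0.869 for the Lamb1 probe set 1451241_at, where skm5 was high at 6.33 against 5.60 to 5.69 in the other samples. Sample skm4 was low for Sgce (0.860) and for Dtnb (0.926). None of the probe sets that stand for the 8 members was set apart in this way, including Sgcd, at a ratio of 0.631.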

How the results depend on the processing

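Of the 6197 genes kept by the filter on level, 16.6% passed the prefix test, and 8.96% of all genes did with an intensity trend. In the other fits of all 4 samples, at most 1.6% of genes or probe sets did. At such shares a count of 0 among 8 genes says little. None of the 8 members passed the prefix test under any of the 11 alternatives run, which is therefore not read as stability. The number of genes past it over the whole array was 4 and moved with the settings, to 186 with quantile normalization, 4 with median centring, 1026 after the filter on level, which leaves Sgcd out, 92 with averaged probe sets, 142 without _x_at and _s_at probe sets, 326 with every probe set on its own, 1110 with an intensity trend and between 0 and 15 with 1 sample left out (0 without nm7, nm8 or skm4, 15 without skm5). There a lone sample was assumed to vary like the other prefix. In the intensity trend fit and the filter, Utrn had adjusted p values of 0.0612 and 0.0617 and Sgca of 0.0622 and 0.0827, the lowest of their alternatives, and the highest were 0.381 for Utrn and 0.532 for Sgca. Utrn, Sgca and Dag1 kept their sign in each fit by gene. The sign of Dmd turned to 0.068 without nm7 and 0.21 without skm4, with a low of -0.34. Sgcb turned to 0.13 with averaged probe sets, 0.049 without nm7 and 0.036 without skm4, with a low of -0.15. Sgcd turned to 0.039 without nm7, with a low of -1.07. Sspn turned to -0.052 without skm5, with highs of 0.16 without skm4 and 0.28 with averaged probe sets, and Dtna to 0.011 without nm8 and 0.16 without skm4, with a low of -0.22. The cause was not tested. No paired analysis was possible because the prefixes share no replicate number.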
